A study of Drosophila melanogaster with 2 samples.

Results

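Peaks of the GFP-tagged CG4282 protein were examined at 6 fly genes of the heat shock and chaperone system, which are Hsp83, Hsf, Hsc70-4, Hsp60A, Hsp26 and Hsp27. They were taken by name from 18277 annotated genes, of which 13968 are protein-coding, and every peak summit inside the gene or within 2000 bp of it was counted. The data came from chromatin immunoprecipitation with sequencing (ChIP-seq), with an antibody against GFP, on whole Drosophila melanogaster embryos of both sexes aged 0 to 24 h. The strain, CG4282-GFP, stably expresses CG4282 with GFP fused at its C-terminal end, and 2 libraries, numbered 3 and 4 as biological replicates, made up the only group. The labels record no heat treatment, and no untagged or input library was analysed here. Embryos of all ages and tissues were mixed, so fewer bound cells and less binding per cell cannot be told apart, and nothing in the labels says how the level of the tagged protein compares with that of the native one.

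Chaperones help proteins to fold and keep unfolded ones from clumping. Heat shock factor, the product of Hsf, binds repeated units of a short heat shock element and switches on heat-induced genes when proteins unfold. Other chaperone genes are transcribed in growing cells at all times, and some, such as Hsp83, are transcribed constitutively and raised further by heat. Of the 6 genes, Hsp83, Hsf, Hsc70-4 and Hsp60A were taken as constitutive and Hsp26 and Hsp27 as heat-induced. Small heat shock genes of the latter kind are also known to be transcribed during development without heat.

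There were 4 peak lists. Relaxed lists of 30000 peaks each came from replicate 3, replicate 4 and both pooled, and the optimal list held 1985 peaks that passed the authors' reproducibility threshold. The optimal peaks were the 1985 pooled peaks with the highest signal, so the rank in the pooled list, with 1 as the strongest, says whether a peak is optimal. The signal is the authors' enrichment value and its scale differs between lists. It ran from 20.4 to 1065.5 in the pooled list, with 66.9 as the lowest optimal value, from 6.60 to 473 in replicate 3 and from 15.4 to 595 in replicate 4. Values are therefore compared between lists by rank. The lists carry no read counts, which leaves depth unknown, and with 1 group and no control library no test between samples could be made.

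An optimal summit was found at Hsp83, Hsp27 and Hsf, or 3 of the 6 genes, beside 21.0% of all protein-coding genes. Hsc70-4, Hsp60A and Hsp26 had only weaker summits. Of the 4 constitutive genes 2 had an optimal summit, and of the heat-induced genes 1 had one. Counting only summits within 500 bp of a transcription start of the gene left Hsp83 and Hsp27, beside 11.4% of protein-coding genes. With so few genes these counts do not set the constitutive genes apart from the heat-induced ones. In the pooled list all 6 genes had a summit within 500 bp of a start, beside 51.5% of protein-coding genes. The 6 genes, like the wider lists below, were chosen with earlier results of these data known. Their counts are therefore no independent comparison with the shares of all genes. The 29 pooled summits of the 6 genes lay within 500 bp of a start in 8 cases, in coding exons in 11, in an intron in 1, in the upstream flank in 4 and in the downstream flank in 5.

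**Figure D1:**
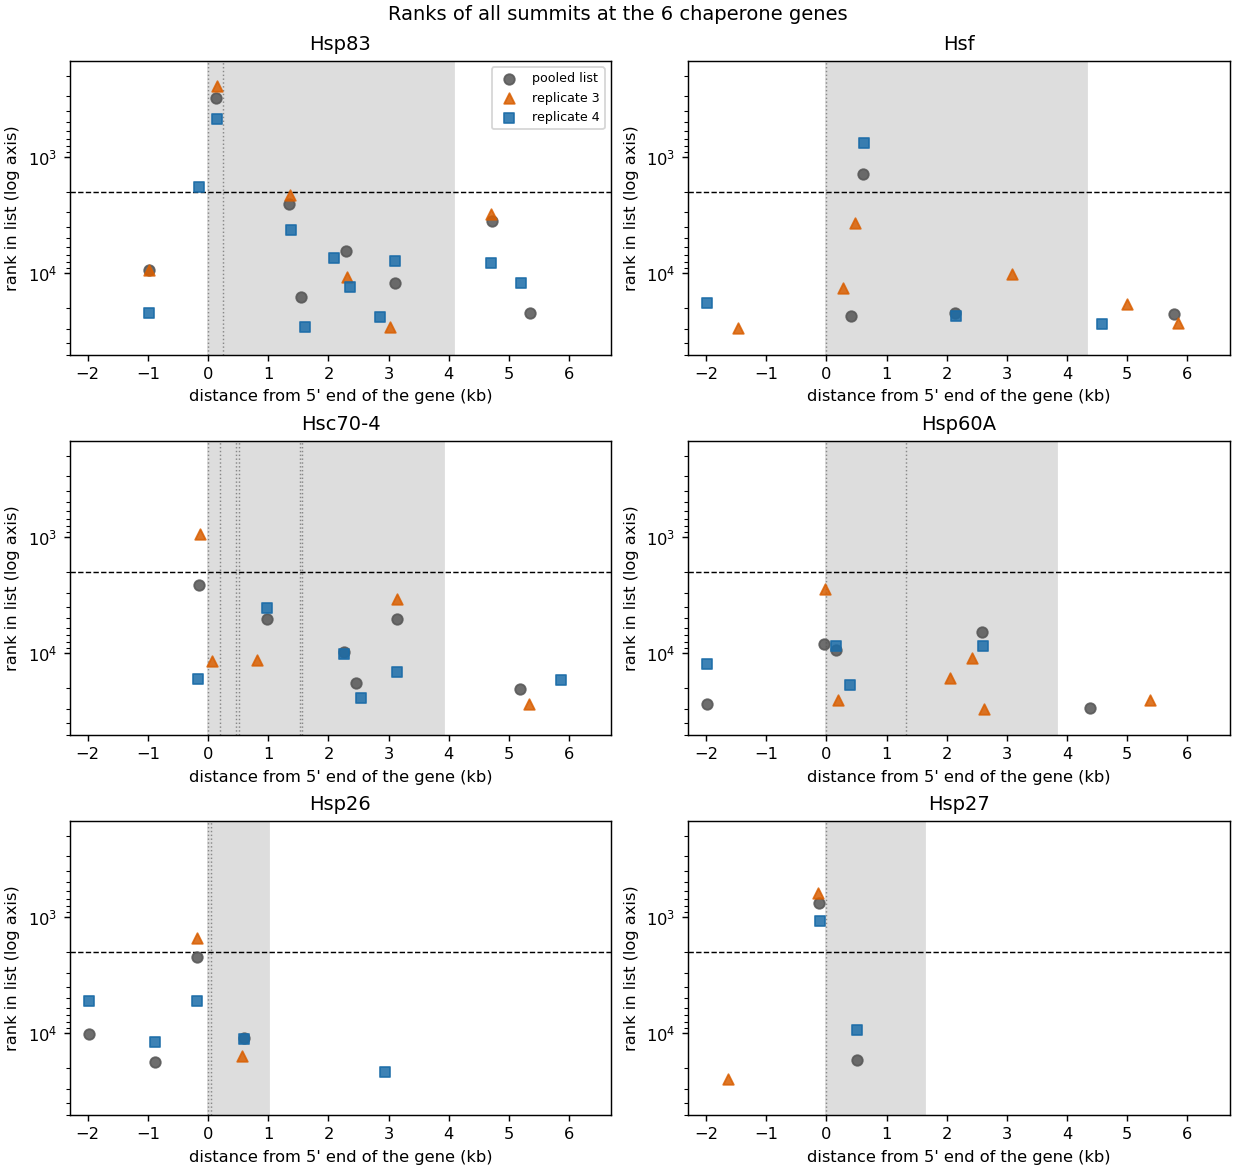
Rank of every summit in the pooled list (circles), replicate 3 (triangles) and replicate 4 (squares) against its distance in kb from the 5' end of each gene, in the direction of transcription, with rank 1 towards the top of a log axis. Grey shading is the gene body, dotted lines are annotated starts and the dashed line is rank 1985, the end of the optimal list. At Hsp83 and Hsp27 all 3 lists have a summit above the line near a start, at Hsf the pooled list and replicate 4 have one inside the gene, over 500 bp from its start, and near the starts of Hsc70-4 and Hsp26 replicate 3 alone has one.

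The sequences around the strongest pooled summit near a start are shown for Hsp83, Hsp27, Hsp26, Hsc70-4 and Hsp60A, since these summits carry the comparison. Each runs 100 bp to either side of the summit, 5' to 3' on the strand of the gene, from the NCBI Release 6 assembly, whose arms have the dm6 coordinates. They cover chr3L:3193008-3193208 (plus strand) for Hsp83, chr3L:9383842-9384042 (plus) for Hsp27, chr3L:9377507-9377707 (minus) for Hsp26, chr3R:15242440-15242640 (plus) for Hsc70-4 and chrX:11108346-11108546 (plus) for Hsp60A. Capitals mark matches, on either strand, to the words searched, which are given after the sequences.
Hsp83: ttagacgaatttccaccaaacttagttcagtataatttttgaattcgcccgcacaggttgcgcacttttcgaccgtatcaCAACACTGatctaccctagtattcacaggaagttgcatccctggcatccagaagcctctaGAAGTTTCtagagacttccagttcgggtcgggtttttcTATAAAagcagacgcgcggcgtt
Hsp27: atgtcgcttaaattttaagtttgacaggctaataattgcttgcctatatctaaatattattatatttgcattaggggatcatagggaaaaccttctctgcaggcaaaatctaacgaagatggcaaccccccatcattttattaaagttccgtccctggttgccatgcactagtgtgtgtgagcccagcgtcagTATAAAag
Hsp26: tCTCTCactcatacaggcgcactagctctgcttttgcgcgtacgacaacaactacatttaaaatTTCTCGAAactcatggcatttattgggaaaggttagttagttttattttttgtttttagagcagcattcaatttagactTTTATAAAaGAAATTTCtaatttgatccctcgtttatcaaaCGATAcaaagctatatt
Hsc70-4: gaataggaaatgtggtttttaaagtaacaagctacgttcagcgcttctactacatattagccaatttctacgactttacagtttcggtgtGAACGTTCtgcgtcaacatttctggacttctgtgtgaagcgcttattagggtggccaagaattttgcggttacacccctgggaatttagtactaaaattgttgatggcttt
Hsp60A: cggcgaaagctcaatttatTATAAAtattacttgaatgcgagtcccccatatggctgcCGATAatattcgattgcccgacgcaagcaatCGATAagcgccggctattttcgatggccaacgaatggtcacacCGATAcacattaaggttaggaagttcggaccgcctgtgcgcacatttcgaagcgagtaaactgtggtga

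The words were GAANNTTC and TTCNNGAA, each of which holds 2 adjoining units of the heat shock element (single units were not searched), GAGAG, found in sites of the Trl protein, CGATA, the core of BEAF-32 sites, TATCGATA, a form of the DRE that contains it, TATAAA, a core promoter element, GGTCACACT, from the M1BP site, and CACAGTGG and CAACACTG, which were picked out earlier from these same peaks. The GAANNTTC and TTCNNGAA matches overlap where 3 units of the element alternate. In the printed Hsp83 window, CAACACTG lay 17 bp before the summit and GAANNTTC 43 bp after it, 65 bp from a start of the gene. TATAAA lay 28 bp from that start. The Hsp27 window held only TATAAA, 26 bp from its start. At Hsp26, TTCNNGAA lay 33 bp before the summit, GAANNTTC 55 bp after it, and TATAAA matched on both strands between the latter and the summit. Farther out in that window lay GAGAG, 97 bp before the summit, with CGATA 86 bp after it. At Hsc70-4, GAANNTTC was centred 7 bp before the summit, and at Hsp60A CGATA occurred 3 times within 40 bp of the summit, at 40, 9 and 34 bp, and TATAAA lay 79 bp before the summit.

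The same words were counted in other windows. Within 50 bp of the summit, GAANNTTC occurred at 2.67% of the 1985 optimal summits and at 2.43% of 6986 weaker pooled summits near a start, and TTCNNGAA at 2.32% and 2.65%. The word CAACACTG, present at Hsp83, occurred at 3.58% and 1.40%, and CGATA, present at Hsp60A, at 21.0% and 18.6%. TATAAA, present within 50 bp at Hsp26, occurred at 12.3% and 8.03%. GAGAG (12.7% and 15.7%), TATCGATA (3.93% and 2.63%), GGTCACACT (1.06% and 1.65%) and CACAGTGG (4.94% and 1.04%) were in none of the 6 windows. At Hsp27 and at the optimal summit of Hsf, none of the 9 words lay within 50 bp.

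Promoters of 300 bp, from 250 bp before a start to 50 bp into the gene, gave a wider view. The 6 genes have 14 starts, and windows of neighbouring starts overlap. GAANNTTC was found at 7 of the 14, belonging to Hsp83, Hsc70-4, Hsp60A and Hsp26, and in 9.34% of 19276 promoters of protein-coding genes. At 2 of the 6 starts of Hsc70-4, 3 units of the heat shock element alternated, as in 0.420% of promoters. The Hsp27 promoter window held TATAAA (42.2% of promoters) and no other of the words. It ends 250 bp before the start, and the sequence just upstream of it was not searched, so elements there would be missed. TATCGATA was in the window of the upstream start of Hsp83 (7.98% of promoters), and GAGAG at 5 starts, of Hsp26 and Hsc70-4 (33.1%). CGATA was found at 8 of the 14 starts, of every member but Hsp27 (45.6%). A match is a stretch of letters, not a measured site.

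Hsp83 encodes the cytosolic HSP90 chaperone, which matures kinases, receptors and other client proteins. The gene (FBgn0001233, 3L, 3192969 to 3197059, plus strand) has 2 annotated starts, at 3192969 and 3193216, and it had the strongest peak of the 6 genes. The optimal summit at 3193108 lay between the starts, in the 5' UTR of the longer transcripts and 108 bp before the downstream start. Its pooled signal was 158 at rank 313. In replicate 3 the summit lay 2 bp away with a signal of 75.8 at rank 248, and in replicate 4 it lay 9 bp away with 79.9 at rank 468. The summit was thus in the strongest 1985 of every list. Replicate 4 had a further summit at 3192821, 148 bp before the upstream start, with a signal of 44.8 at rank 1813, and neither replicate 3 nor the pooled list had a summit there.

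The body of Hsp83 held further, weaker summits. An intronic summit at 3194316 had a pooled signal of 59.0 at rank 2561, with rank 2125 in replicate 3 and 4285 in replicate 4, and so lay outside the strongest 1985 in all of them. In the coding exons, pooled summits at 3194521, 3195265 and 3196071 ranked 16124, 6457 and 12012. The summit at 3195265, the strongest of these, ranked 10812 in replicate 3 and 13247 in replicate 4. The others were less alike between replicates. The summit at 3196071 ranked 29062 in replicate 3 and 7891 in replicate 4, and the one at 3194521 was matched, by the nearest summit within 200 bp in both directions, in replicate 4 only, at rank 29183.

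Some summits counted for Hsp83 lie closer to its neighbours. The summit at 3197680 (pooled signal 50.2, rank 3572, replicate ranks 3081 and 8078) was 49 bp from the start of CG14966 and 4464 bp from the nearest Hsp83 start. A summit at 3191990 (33.8, rank 9363) was 501 bp from the start of CG14965. In all, 8 pooled summits fell in the Hsp83 region of 8.09 kb, or 0.989 per kb, and 4 of the 8 were nearest to the start of another gene. The median over protein-coding genes was 0.346 pooled summits per kb, and 96.7% of them had a lower density than Hsp83. Hsp26 (90.8%), Hsc70-4 (88.8%), Hsp60A (81.2%) and Hsf (66.7%) followed, and Hsp27, which has the second strongest peak, was near the middle (51.2%). The strength of the leading peak and the number of weak ones therefore did not follow the same order.

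Hsf (FBgn0001222, 2R, 18130303 to 18134634, minus strand) encodes heat shock factor, the activator of the heat-induced genes, and its optimal peak lay inside the gene rather than at its start. The summit at 18134022 was in a coding exon, 612 bp downstream of the only annotated start, with a pooled signal of 79.7 at rank 1396. In replicate 4 a summit 11 bp away had a signal of 64.6 at rank 758. In replicate 3 the nearest summit was 130 bp away, in an intron at 18134152, with a signal of 19.0 at rank 3710, and it lay closer to a separate weak pooled summit at 18134221 (23.1, rank 23292). The optimal peak of Hsf thus rested on replicate 4, and replicate 3 showed a weaker and displaced summit. No summit of replicate 4 lay within 500 bp of the Hsf start. The other summits of the gene were weak, at pooled ranks 22156 and 22278, the latter 365 bp from the start of the neighbour Dlip3. Further summits of the replicates ranked between 10215 and 29801, some of them nearest to Dlip3 or to Pcl, a Polycomb group gene upstream.

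Hsc70-4 encodes the main cytosolic HSP70 cognate, which is abundant without heat and also uncoats clathrin vesicles. The gene (FBgn0266599, 3R, 15242687 to 15246614, plus strand) has 6 annotated starts and no optimal peak. Its strongest pooled summit, at 15242540, was 147 bp before the first start, with a signal of 58.8 at rank 2572. The replicates differed there, since the summit ranked 942 in replicate 3 (signal 40.8) and 16461 in replicate 4 (20.3). A summit in an intron at 15243659 had the opposite order, with rank 11481 in replicate 3, 159 bp away, and 4102 in replicate 4, 1 bp away. In the coding exons the summits at 15244949, 15245148 and 15245818 had pooled ranks of 9822, 18138 and 5052, and the last ranked 3420 in replicate 3 and 14590 in replicate 4. Each replicate thus ranked a different summit of Hsc70-4 first.

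Hsp60A encodes the mitochondrial chaperonin, a barrel in which imported proteins fold. The gene (FBgn0015245, X, 11108482 to 11112308, plus strand) has 2 annotated starts, and its strongest summit was the weakest of the 6 genes in the pooled list and in replicate 4, though not in replicate 3, where that of Hsf ranked lower. The pooled summit at 11108446, 36 bp before the first start, had a signal of 35.5 at rank 8286, and the next, 168 bp inside the gene, had 33.8 at rank 9374. The strongest, 38.9 at rank 6541, was in a coding exon at 11111071. In replicate 3 the start-site summit ranked 2776 (signal 22.5, 22 bp before the start). In replicate 4 the nearest was 158 bp downstream of the start at rank 8569. No list placed a summit of Hsp60A among its strongest 1985.

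Hsp26 and Hsp27 encode small heat shock proteins, which hold unfolded proteins until other chaperones refold them, and both genes are in a cluster on arm 3L. Hsp27 (FBgn0001226, 9384063 to 9385694, plus strand) had an optimal summit at 9383942, 121 bp before its only start, with a pooled signal of 108 at rank 751. Replicate 3 placed it at rank 625 (signal 51.2) and replicate 4 at rank 1075 (55.6), with summits 14 and 16 bp away. Like that of Hsp83, the summit was in the strongest 1985 of every list. A weak coding summit at 9384571 (26.7, rank 16903) was matched in replicate 4 only, at rank 9281. Neither GAANNTTC nor TTCNNGAA lay within 50 bp of the optimal summit at 9383942, and the window of the coding summit was not examined.

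Hsp26 (FBgn0001225, 9376418 to 9377427, minus strand) had its strongest summit at 9377607, 180 bp before the nearer of its 2 starts. The pooled signal of 63.6 ranked 2191, close to but outside the optimal list, whose lowest signal was 66.9. Replicate 3 placed it at rank 1501 (31.8) and replicate 4 at rank 5217 (30.5), with summits 8 and 0 bp away. A coding summit at 9376832 ranked 11038 in the pooled list, 15589 in replicate 3 and 11117 in replicate 4. The other pooled summits in its flank, at 9378313 (rank 17768) and 9379402 (10159), were nearest to the starts of asRNA:CR43481 and Hsp67Ba and were matched in replicate 4 only.

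The cluster lets genes that heat switches on together be compared along a stretch of DNA. Over the 14.2 kb that hold the 7 genes listed here as small heat shock genes there were 10 pooled summits, of which the one at Hsp27 was optimal. CG4461, a protein-coding gene in the same stretch, was not on the list, and whether each listed gene encodes a small heat shock protein was not examined. Next came Hsp26 (63.6, rank 2191), Hsp22 (49.6, rank 3692, 420 bp from a start), Hsp67Bc (46.8, rank 4201, 330 bp from its start), Hsp23 (36.4, rank 7753, 48 bp) and Hsp67Ba (32.8, rank 10159, 132 bp). No summit lay within 500 bp of the start of Hsp67Bb, which the annotation names CG4456. Replicate 3 had 7 summits in the same stretch and replicate 4 had 12. Hsp27 led in both, with Hsp26 next in replicate 3 and also in replicate 4, where Hsp67Ba followed closely at rank 5316. Hsp23 lies just upstream of Hsp27 and its 2000 bp flank takes in the Hsp27 summit, 2060 bp from its own start, so counts over gene bodies and flanks hold that peak for both genes.

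**Figure D2:**
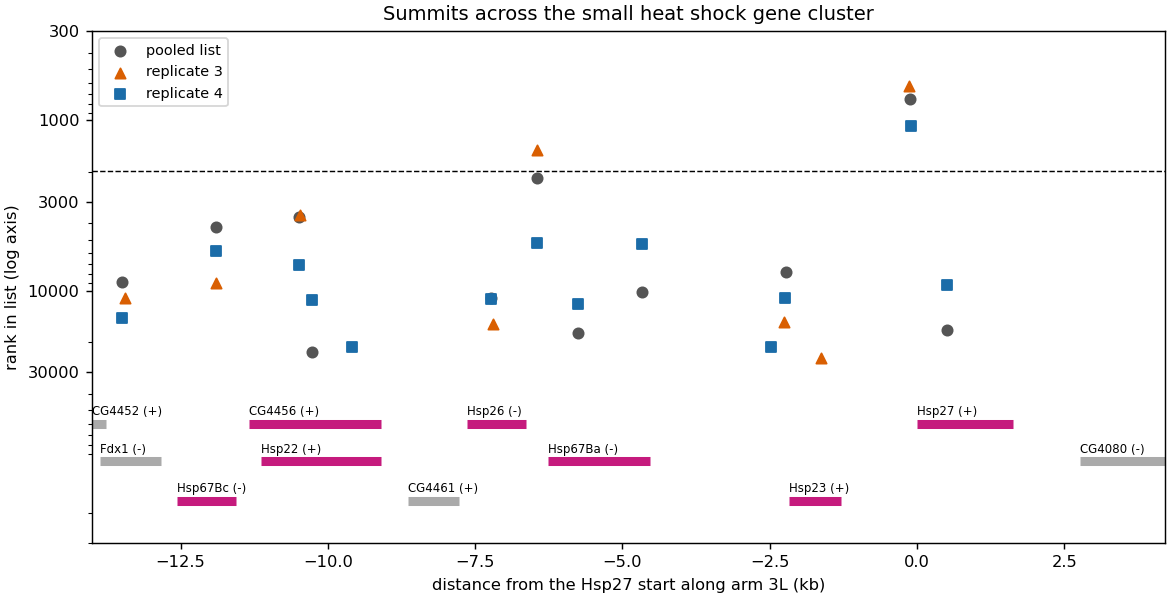
Rank of each summit (log axis, rank 1 towards the top) against distance in kb from the Hsp27 start along arm 3L, for the pooled list (circles), replicate 3 (triangles) and replicate 4 (squares). Bars are protein-coding genes with their strand, listed small heat shock genes in magenta, and the dashed line is rank 1985. All 3 lists have a summit above the line just before Hsp27, and replicate 3 also has one just before Hsp26 at rank 1501.

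Agreement between replicates differed among the summits of the 6 genes. Of the 29 pooled summits, 14 were matched by a summit within 200 bp in both replicates, 4 in replicate 3 only, 10 in replicate 4 only and 1 in neither. Over all 30000 pooled summits the shares were 40.6%, 16.5%, 37.6% and 5.30%. The 14 matched in both included the leading summits of Hsp83, Hsp27, Hsp26 and Hsc70-4. The optimal summit of Hsf was not among them, since the nearest summit of replicate 3 belonged to another pooled summit.

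Peaks as strong in both replicates as those of the members were found at unrelated genes. Likeness was the distance between log10 ranks in replicates 3 and 4, over 1581 genes with an optimal start-site summit and a summit within 200 bp in each of the 2 libraries. Nearest to Hsp83 were CG11247 and Polr2H, a subunit of RNA polymerases, which share 1 summit (ranks 225 and 472, distance 0.0424), and CG9743 (280 and 448, distance 0.056). Nearest to Hsp27 were CG32264, ntc, an F-box protein gene, and IntS10, an Integrator subunit, which share 1 summit (624 and 1076, distance 0.0008). Since this uses 2 ranks alone, it says only that the peaks are alike in strength.

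The wider chaperone system was then counted with lists of 43 constitutive and 17 heat-induced genes, which include the 6. An optimal summit lay within 500 bp of a start of 6 constitutive genes (14.0%) and 2 heat-induced genes (11.8%), both near the 11.4% of all protein-coding genes. With the gene body and 2000 bp around it the counts were 10 (23.3%) and 4 (23.5%), against 21.0%. The 4 include Hsp23, through the Hsp27 summit alone. Counting listed genes that share a summit once gave 3 of 17 (17.6%) and left the constitutive 10. That count was added after the data were seen. It merges listed genes only, so Hop, CHORD, l(2)tid and Pfdn6 stay among the constitutive 10. The optimal summit of each was nearest to the start of a gene outside the lists. At the starts the optimal shares of both classes were close to the background, and no difference between them was tested. In the pooled relaxed list, start-site summits were at 28 constitutive (65.1%) and 9 heat-induced genes (52.9%), against 51.5%. The order of these shares depended on the setting. A start window of 250 bp gave 20 of 43 (46.5%) and 8 of 17 (47.1%), and so did the strongest 10000 pooled peaks. The 51.5% of all protein-coding genes holds for 500 bp and the whole pooled list, so it is no background for these 2 settings. The other settings run kept the order. The median density of pooled summits was 0.579 per kb in the constitutive and 0.481 in the heat-induced genes, above the 0.346 of all protein-coding genes. The regions of the clustered small heat shock genes overlap, so the heat-induced densities count some summits for several genes. The heat-induced lists also differed. Pooled start-site summits were at 6 of the 7 genes on the small heat shock list. They were at all 3 on the list of co-chaperones and heat shock RNA, and at none of the 7 HSP70 and HSP68 genes. The lack of summits at the nearly identical Hsp70 copies is uncertain, as described below, and so are the heat-induced shares and density above.

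Among the constitutive genes, the HSP90 list had Hsp83 and Trap1, a mitochondrial HSP90, with an optimal start-site summit, or 2 of 10. The Trap1 summit (signal 88.3, rank 1118) lay 49 bp from its start and ranked 2092 in replicate 3 and 450 in replicate 4. Gp93, the HSP90 of the endoplasmic reticulum, had 60.7 at rank 2395, p23, a co-chaperone, 46.3, and unc-45, which folds myosin, 54.8. The optimal summits near Hop (208) and CHORD (135) were nearest to the starts of Pi3K21B and CG5515. These symbols appear in the annotation as Stip1 and mora.

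The list of HSP70 cognates and partners had 3 of 14 with an optimal start-site summit. The strongest was mrj, a DnaJ co-chaperone, with 162 at rank 298 and ranks of 195 and 456 in replicates 3 and 4, which is about the strength of Hsp83. A second, stronger optimal summit of mrj (188) lay 656 bp from its nearest start. Tpr2, a co-chaperone with a DnaJ domain, had 96.2 at rank 940 (replicate ranks 1825 and 774), and Hsc70-5, the mitochondrial HSP70, had 81.2 at rank 1343 (1696 and 1608). An optimal summit of 257 near l(2)tid was nearest to the start of Alg3. Hsc70-3, the HSP70 of the endoplasmic reticulum, had a start-site summit of 20.6 at rank 29408 and its strongest pooled summit, 38.7 at rank 6645, away from its starts, and Hsc70-2 had no start-site summit in any list.

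The chaperonins had no optimal summit. Of the HSP60 genes only Hsp60A had a start-site summit, and Hsp60B, Hsp60C and Hsp60D had none in any list. The 8 CCT genes, which encode the ring that folds actin and tubulin, split by replicate, with a relaxed start-site summit at 7 in replicate 3 and at 1 in replicate 4. The background was 52.1% of protein-coding genes in replicate 3 and 49.1% in replicate 4. In replicate 3 the CCT summits were of low to moderate rank, with CCT3 at 2167, CCT7 at 2695, CCT1 at 6679, CCT4 at 13123, CCT2 at 15166, CCT5 at 15714 and CCT8 at 22294. CCT7, at rank 10598, was the gene with one in replicate 4, and CCT6 had none in either. In the pooled list the strongest start-site summits of CCT7 and CCT4 lay 256 and 439 bp from their starts. They were nearer to the starts of Pif1A and CG6153, while those of CCT1 and CCT2 were nearest to their own genes. Of the prefoldin genes and l(2)efl, 1 of 7 had an optimal start-site summit, at Pfdn6 (138, rank 431), 302 bp from its start but nearer to that of Su(z)12, a Polycomb group gene.

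Among the heat-induced genes, stv, which encodes a BAG co-chaperone, was the other gene beside Hsp27 with an optimal start-site summit (71.7, rank 1714, 433 bp from a start). DnaJ-1, an HSP40, was just outside the optimal list with 66.4 at rank 2018, and ranked 5028 in replicate 3 and 1236 in replicate 4. The non-coding heat shock RNA gene lncRNA:Hsromega had an optimal summit of 97.3 at 1195 bp from its start and a start-site summit of 38.5. None of the 7 genes for HSP70 and HSP68 had a pooled summit within 500 bp of a start, and Hsp68 had one in replicate 3 only, at rank 28109. The Hsp70 copies are nearly identical in sequence, and how reads that map to several places were treated is not given in the sources used here, so their lack of summits is uncertain.

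In the relaxed lists the share of constitutive genes was higher in replicate 3 than in replicate 4, and that of heat-induced genes was the same in both. Start-site summits were found at 34 of 43 constitutive genes in replicate 3 (79.1%) and at 23 in replicate 4 (53.5%), and at 9 of 17 heat-induced genes (52.9%) in each, against 52.1% and 49.1% of all protein-coding genes. Of the constitutive genes, 22 had one in both replicates, 12 in replicate 3 only, 1 in replicate 4 only and 8 in neither. In the heat-induced genes these counts were 8, 1, 1 and 7. The 7 were Hsp67Bb and the Hsp70 copies, whose lack of summits is uncertain. The CCT genes made up 6 of the 12 constitutive genes with a summit in replicate 3 only. Whether the classes differ in this way beyond counting error was not tested. The same split over all protein-coding genes is not given here. Whether the excess in replicate 3 only is particular to the constitutive genes therefore cannot be read from these counts.

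**Figure D3:**
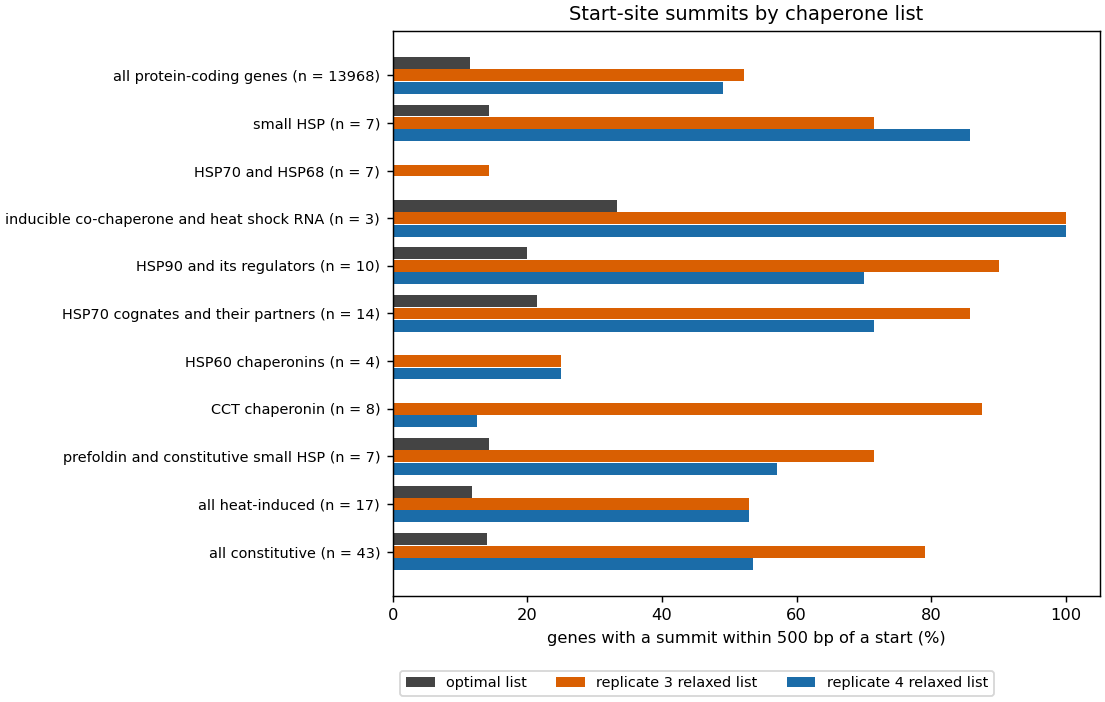
Share of genes in percent with a summit within 500 bp of a start, by chaperone list, in the optimal list (dark), the relaxed list of replicate 3 (orange) and that of replicate 4 (blue), with all protein-coding genes at the top. The CCT genes reach 87.5% in replicate 3 and 12.5% in replicate 4, while the optimal shares of the constitutive and heat-induced classes, 14.0% and 11.8%, lie near the 11.4% of all protein-coding genes.

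The strongest 1985 peaks of each replicate alone gave start-site summits at Hsp83, Hsc70-4, Hsp26 and Hsp27 in replicate 3 and at Hsp83 and Hsp27 in replicate 4, beside 11.6% and 11.3% of protein-coding genes. Hsp83 and Hsp27 were thus the members found in both, 1 constitutive and 1 heat-induced.

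**Figure D4:**
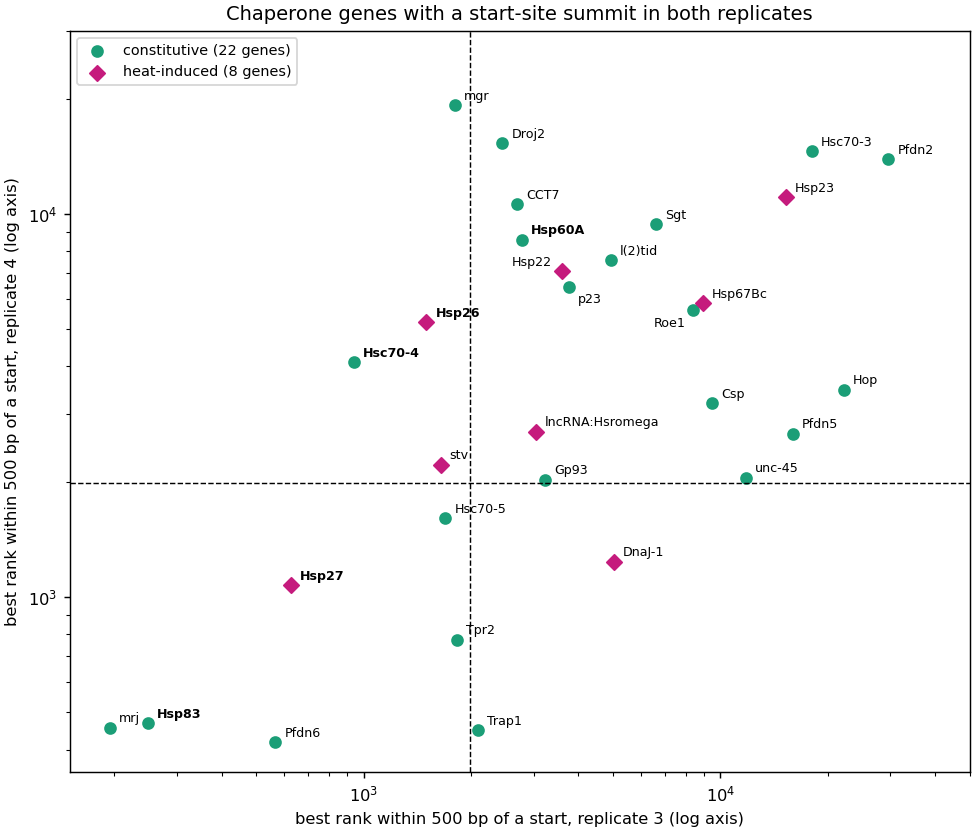
Best rank within 500 bp of a start in replicate 3 against that in replicate 4 (log axes), for the 22 constitutive (circles) and 8 heat-induced (diamonds) genes with a start-site summit in both replicates, where the best summit need not be the same in each. Dashed lines are rank 1985 and the members are in bold. Hsp83, mrj, Pfdn6, Hsp27, Tpr2 and Hsc70-5 lie in the lower left corner, among the strongest 1985 of both replicates. Hsc70-4, Hsp26, stv and mgr, a gene of the prefoldin list, are among them in replicate 3 alone, and Trap1 and DnaJ-1 in replicate 4 alone.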

How the data were processed

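ChIP-seq peak lists of 2 biological replicates, numbered 3 and 4 in the labels, were used in the dm6 build. Per the labels, chromatin was sonicated and sized at 200 to 800 bp. Per the deposited file listing, the authors made each relaxed list from alignments and 1 control file, and the optimal list from these by irreproducible discovery rate. The aligner, the caller and its cutoff are not given in the sources. The values used are the deposited signal of each peak, an enrichment from the authors' caller.

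Peaks were ranked by signal within a list. Gene models were Ensembl release 115 on the BDGP6 assembly, without transposable elements, and sequence came from the NCBI assembly of the same release. Its arms were at least as long as the last peak. The 5 listed symbols absent from the annotation were matched through RefSeq synonyms. Counting was tested on simulated peaks (Python 3.11.15, pandas 2.3.3, NumPy 2.4.6). The members, lists and words were chosen with earlier results of these data known. Genes named are the members, up to 5 genes of each list by highest optimal signal, genes whose start is near a member summit and the 3 nearest in rank, and further listed genes are given with values. Those outside this rule were chosen after their values were seen. The dm3 lists were not used.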

Additional observations from a re-analysis of the deposited data

How the results depend on the processing

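Of the 42 alternatives run on 8 counts, 39 stayed within 1.5 times the reported count. Counting members with an optimal start-site summit, the strongest peaks of replicate 3 alone (without replicate 4) gave 4 of 6 genes and those of replicate 4 alone gave 2, against the reported 2. Counting heat-induced genes with an optimal start-site summit, the reported 2 fell to 1 with a start window of 250 bp. With the strongest 1000 optimal peaks it also fell to 1. Both settings leave Hsp27 and drop stv. The constitutive count fell from 6 to 4 of 43 (9.30%) in each of these 2 settings. The share of all protein-coding genes at these settings is not given here, and the 11.4% holds for 500 bp and the whole optimal list. With either replicate left out, the heat-induced count ranged from 2 to 3. For Hsf the start-site count depends on the window, since its optimal summit is 612 bp from the start. With Hsp83 moved to the heat-induced genes, optimal start-site summits were at 5 of 42 constitutive and 3 of 18 heat-induced genes (11.9% and 16.7%), which reverses the order of the shares, as did leaving out replicate 4 (7 of 43 and 3 of 17, or 16.3% and 17.6%). No paired analysis was possible because there was 1 group. Read depth was unknown, so a gene without a summit cannot be told apart from one too thinly covered.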
